A study of Mus musculus with 2 samples.

Results

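Levels of 9 genes of the itaconate and NRF2 response were examined in GR-1+ myeloid cells of anti-PD1-treated 4T1 tumors, out of 28692 genes listed for both libraries. The genes were Irg1 (the symbol the files use for Acod1), Nfe2l2, Slc7a11, Txnrd1, Srxn1, Gclm, Sqstm1, Prdx1 and Hmox1, and all 9 were found by symbol in both matrices and had UMIs in both lineages of both libraries. They were chosen with their levels by lineage, cell state and library already known, so those levels are given as a description and no test was made of them. 4T1 is a triple-negative mammary carcinoma line of BALB/c mice. 4T1p is its parental, anti-PD1-resistant form, and 4T1m is a polyclonal, anti-PD1-responsive derivative made with the mutagen MNNG. Both were grown in the mammary fat pad of female BALB/c mice aged 8 to 10 weeks, all of which received anti-PD1 for 2 weeks, so that neither library has an IgG-treated control here. GR-1+ cells, those that bind an antibody to Ly6C and Ly6G, were selected on magnetic beads, and 1 single-cell library per tumor type was sequenced with 10x Genomics 3′ v3 chemistry, which counts each captured transcript once by its unique molecular identifier (UMI). How many tumors went into each library is not given in the sources used here.

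There were 1641 barcodes with 9021132 UMIs in the library labelled 4T1p (median 2066 per barcode), and 2749 barcodes with 14840190 UMIs in that labelled 4T1m (median 2763). These medians are exchanged between the conditions relative to the study's own account, so each library is called by the label of its file, and any direction between the libraries holds only as far as these labels do. With the labels exchanged, every ratio between the libraries given here would change sign. No barcode was shared. Of the barcodes, 1128 and 2092 had 250 to 5000 genes, at most 27000 UMIs and a mitochondrial share within the limit of the study. The study also required a UMI of Ptprc, to remove non-immune cells. Only 518 and 1575 of these barcodes had one, and it was required here in an alternative only. The 1128 and 2092 barcodes fell into 12 clusters, built without the 9 genes. From marker lists, 5 clusters were monocytic-like (736 and 787 cells of the libraries labelled 4T1p and 4T1m), 4 were granulocytic-like (251 and 1022 cells), 1 was B cell-like (35 cells) and 1 was T cell-like (29 cells). A cluster of 360 barcodes with a median of 930 UMIs and no marker among its leading genes was left unnamed. Apoe, a monocytic marker, was higher in monocytic-like than in granulocytic-like cells, with a log2 ratio of 5.42 in the library labelled 4T1p and 4.58 in that labelled 4T1m. S100a8, a granulocytic marker, was lower, with log2 ratios of −7.64 and −7.22. Monocytic-like cells had a median of 1804.5 UMIs in the library labelled 4T1p and 7661 in that labelled 4T1m. In the first, 67.1% of them (exact binomial 95% interval 63.6 to 70.5) lay in 3 shallow clusters (795 cells with a median of 1179 UMIs), and in the second 38.2% (34.8 to 41.7). Granulocytic-like cells were even in depth, with medians of 2717 and 2482 UMIs.

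As background, Irg1 encodes the mitochondrial enzyme that makes itaconate from cis-aconitate, an intermediate of the citric acid cycle, and is induced in activated macrophages and neutrophils. Itaconate inhibits succinate dehydrogenase, and in reactive forms it modifies cysteines of KEAP1. KEAP1 is the adaptor through which a cullin-3 ligase marks the transcription factor NRF2 (encoded by Nfe2l2) for degradation. NRF2 that escapes KEAP1 pairs with small MAF proteins at antioxidant response elements and activates genes for cystine uptake, glutathione synthesis, the thioredoxin and peroxiredoxin systems and heme breakdown, while BACH1 competes for the same elements. In the tumor, this response is known for protecting myeloid cells from oxidants and from lipid peroxidation.

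The antioxidant response element, at which NRF2 acts, was looked up first. RefSeq promoter windows (250 bases before to 50 after the start, GRCm38.p6) were matched for 8 of the 9 genes, all but Hmox1, and searched on both strands for the core of the antioxidant response element, TGACNNNGC. It was present in 5 of 8 genes, against 14% of all 27025 genes in the table, or 12.4% of their 32851 promoter windows. The windows around the match are shown 5′ to 3′ on the strand of the gene, with the match in capitals, which shows as its reverse complement where it lies on the opposite strand.
Nfe2l2, chr2:75704885-75704913, minus strand: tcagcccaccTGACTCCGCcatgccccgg
Txnrd1, chr10:82859104-82859132, plus strand: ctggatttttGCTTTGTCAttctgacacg
Srxn1, chr2:152105542-152105570, plus strand: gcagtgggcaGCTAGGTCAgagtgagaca
Gclm, chr3:122245413-122245441, plus strand: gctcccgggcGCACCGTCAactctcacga
Prdx1, chr4:116685456-116685484, plus strand: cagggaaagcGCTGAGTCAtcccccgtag

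The first capital letter lay at −240 from the listed start in Nfe2l2, at −92 in Txnrd1 (in 1 of its 3 listed promoters), at −134 in Gclm and at −133 in Prdx1, and at 28 in Srxn1, inside the transcribed region. Other motifs were less shared. The AP-1 site TGANTCA, in 7.81% of all windows and 8.97% of all genes, occurred in 2 of the 8 genes, Srxn1 and Prdx1, and 1 of the Prdx1 sites overlapped the antioxidant response element shown. The interferon-stimulated response element core, a pair of GAAA blocks with any 2 bases between them (3.44% of windows, 3.99% of genes), was not in these windows of the 8 genes. The composite site of C/EBP and ATF4, TTGCATCA (0.895% of windows, 1.03% of genes), occurred in Slc7a11 alone among the 8 genes, on both strands.
Slc7a11, chr3:50443662-50443689, minus strand: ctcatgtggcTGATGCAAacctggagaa
Slc7a11, chr3:50443643-50443670, minus strand: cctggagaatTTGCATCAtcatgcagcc
A match is a description of the letters and not of binding, and Irg1 and Sqstm1 held none of the 4 motifs in their windows.

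Irg1 (chromosome 14 from 103046977 to 103056573, GRCm38) had the largest excess in granulocytic-like cells among the 9 genes. Levels are given as CPM, the UMIs of a gene in a group of cells relative to 1e+06 UMIs of that group, with exact Poisson 95% intervals that, like all intervals here, cover counting error only. In monocytic-like cells Irg1 had 259.8 CPM (245 to 275, 1121 UMIs) in the library labelled 4T1p and 357 CPM (343 to 371, 2424 UMIs) in that labelled 4T1m. In granulocytic-like cells it had 3284 CPM (3161 to 3410, 2705 UMIs) and 4832 CPM (4756 to 4910, 15207 UMIs). Both granulocytic values thus lay above both monocytic ones, at 12.6-fold in the library labelled 4T1p and 13.5-fold in that labelled 4T1m (log2 ratio of monocytic-like over granulocytic-like −3.66, −3.76 to −3.56, and −3.76, −3.82 to −3.70). Granulocytic-like cells were 39.5% of the kept cells and gave 83.1% of the 21542 Irg1 UMIs. Granulocyte transcripts were also found at low level in monocytic-like cells, where all 9 granulocytic markers had UMIs and summed to 961 and 1374 CPM, or 0.583% and 0.825% of their level in granulocytic-like cells. Irg1 in monocytic-like cells stood at 7.91% and 7.38% of its granulocytic level, a share larger than that of the summed markers in both libraries. Of the single markers, Il1r2 (log2 ratios −3.50 and −3.52) and Mmp9 (−3.44 and −1.84) differed less between the lineages than Irg1, and the other granulocytic markers more. The part of carried-over transcripts in the monocytic values of Irg1 was not tested.

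**Figure D1:**
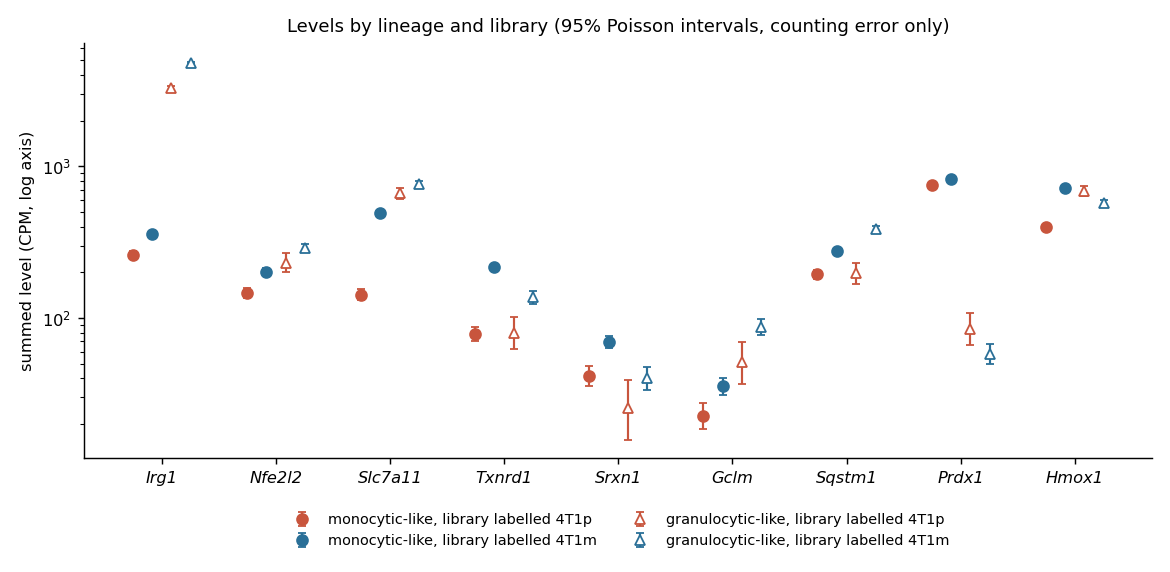
Summed level of each gene in CPM (log axis) in monocytic-like cells (filled circles) and granulocytic-like cells (open triangles) of the libraries labelled 4T1p (red) and 4T1m (blue), with exact Poisson 95% intervals for counting error. Irg1 lies between 3284 and 4832 CPM in granulocytic-like cells and between 259.8 and 357 CPM in monocytic-like cells, Prdx1 has the opposite order, and the other 7 genes lie closer together.

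Nfe2l2 (chromosome 2 from 75675513 to 75704641), which encodes NRF2 itself, had 146 and 202 CPM in monocytic-like cells and 232 and 289 CPM in granulocytic-like cells of the libraries labelled 4T1p and 4T1m. Its log2 ratio between the lineages was −0.66 (−0.90 to −0.42) and −0.52 (−0.64 to −0.40), so that the transcript was higher in granulocytic-like cells in both libraries. The difference was under 2-fold in summed UMIs but reached −1.09 in the library labelled 4T1p as a mean over cells, which gives shallow cells the same weight as deep ones. Sqstm1 (chromosome 11 from 50199366 to 50210827) encodes p62, an autophagy receptor that binds KEAP1 and is itself an NRF2 target. It had 195 and 197 CPM in monocytic-like and granulocytic-like cells of the library labelled 4T1p, a log2 ratio of −0.01 (−0.26 to 0.24), and 278 and 385 CPM in that labelled 4T1m, a log2 ratio of −0.47 (−0.57 to −0.36). As a mean over cells the ratios were −0.73 and −0.62 in the same order of libraries, so that the near equality in the first held for summed UMIs and not for the mean over cells.

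Slc7a11 (chromosome 3 from 49892526 to 50443614) encodes xCT, the cystine-glutamate exchanger that brings in the cysteine for glutathione. In the library labelled 4T1p it had 143 CPM (131 to 154) in monocytic-like and 665 CPM (611 to 723) in granulocytic-like cells, a log2 ratio of −2.22 (−2.39 to −2.05). In the library labelled 4T1m the same levels were 490 CPM (473 to 507) and 768 CPM (738 to 799), so that the log2 ratio came to −0.65 (−0.73 to −0.57). The granulocytic values were close to each other and the monocytic ones were not, and in summed UMIs the lineage ratio passed 2-fold in the first library only. As a mean over cells it passed 2-fold in both, at −3.36 and −1.22. Gclm (chromosome 3 from 122245557 to 122270732), the modifier subunit of the ligase for the rate-limiting step of glutathione synthesis, had 22.7 CPM (98 UMIs) and 35.5 CPM (241 UMIs) in monocytic-like cells and 51.0 CPM (42 UMIs) and 87.7 CPM (276 UMIs) in granulocytic-like cells. Gclm was lower in monocytic-like cells by log2 ratios of −1.17 (−1.70 to −0.61) and −1.31 (−1.56 to −1.05). In the library labelled 4T1m this ratio was −0.39 with every cell thinned to 1000 UMIs and −0.87 as a mean over cells. The granulocytic Gclm UMIs came in good part from cluster 9, described below, with 16 of the 42 and 144 of the 276. Clusters 0, 3 and 6 had 72.9, 43.4 and 73.7 CPM of Gclm in the library labelled 4T1m. The lineage ratio without cluster 9 is not given.

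Between the lineages, the genes of the thioredoxin and peroxiredoxin systems did not follow Irg1. Prdx1 (chromosome 4 from 116685544 to 116700822), an abundant peroxide scavenger, had 757 CPM (731 to 784, 3267 UMIs) and 831 CPM (810 to 853, 5648 UMIs) in monocytic-like cells, but 85.0 CPM (66.2 to 107, 70 UMIs) and 58.2 CPM (50.03 to 67.2, 183 UMIs) in granulocytic-like cells. The log2 ratio was 3.16 (2.81 to 3.52) and 3.84 (3.62 to 4.06), and only 2.47% of 10263 Prdx1 UMIs came from granulocytic-like cells. Its granulocytic level was 11.2% and 6.996% of the monocytic one, while the 11 monocytic markers together stood in granulocytic-like cells at 7.35% and 8.08% of their monocytic level (2996 and 2183 CPM). The part of carried-over transcripts in the granulocytic values of Prdx1 was not tested. Txnrd1 (chromosome 10 from 82833951 to 82897712), the cytosolic thioredoxin reductase, had 78.3 CPM in monocytic-like and 80.1 CPM in granulocytic-like cells of the library labelled 4T1p (log2 ratio −0.03, −0.42 to 0.37), and 216 and 137 CPM in that labelled 4T1m (log2 ratio 0.66, 0.51 to 0.82). Srxn1 (chromosome 2 from 152105516 to 152111376), the enzyme that restores overoxidized peroxiredoxins, had 41.5 and 25.5 CPM (log2 ratio 0.70, 0.05 to 1.43) and 69.2 and 40.0 CPM (0.79, 0.50 to 1.08). In summed UMIs, both were thus at similar or higher levels in monocytic-like cells. The Txnrd1 ratio was −0.60 as a mean over cells in the library labelled 4T1p, and 0.09 in cells thinned to 1000 UMIs in that labelled 4T1m. The Srxn1 ratio in the library labelled 4T1p rested on 21 granulocytic UMIs. It turned to −0.26 with at most 5% mitochondrial UMIs and to −0.37 as a mean over cells.

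Hmox1 (chromosome 8 from 75093621 to 75100589) encodes heme oxygenase-1, which breaks heme down to biliverdin, iron and carbon monoxide, and is under both NRF2 and BACH1. It had 397 CPM (379 to 417) in monocytic-like and 688 CPM (633 to 747) in granulocytic-like cells of the library labelled 4T1p, and 715 CPM (695 to 736) and 573 CPM (547 to 600.0) in that labelled 4T1m. The order of the lineages was therefore opposite in the libraries, with log2 ratios of −0.79 (−0.93 to −0.65) and 0.32 (0.24 to 0.40). As a mean over cells the first was −1.46 and the second 0.06. The second ratio fell to −0.04 in cells thinned to 1000 UMIs and to −0.0050 when the 50 most abundant genes, which held 41.3% of granulocytic and 26.5% of monocytic UMIs there, were left out of the total.

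Among the 9 genes, 1 (Prdx1) was at least 2-fold higher in monocytic-like cells in both libraries, where 46.2% of 6899 genes with at least 50 UMIs were, and 2 (Irg1 and Gclm) were at least 2-fold lower, where 7.68% of genes were. By single library, 1 was higher, where 49.7% and 54.1% of genes were in the libraries labelled 4T1p and 4T1m, and 3 (with Slc7a11) and 2 were lower, where 10.9% and 10.3% were. The count of 2 became 1 with at most 5% mitochondrial UMIs, in thinned cells and with a minimum of 200 UMIs, and as a mean over cells the 2 genes were Irg1 (−4.51 and −4.02) and Slc7a11. The median log2 ratio of the 9 genes was −0.66 and −0.47 in the libraries labelled 4T1p and 4T1m, beside 0.99 and 1.19 over all genes tested. These medians of all genes above 0 show that ratios of CPM between the lineages are centered above 0, and leaving out the 50 most abundant genes shifted all of them by −0.30 and −0.33.

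Shares of cells with a UMI depended on depth and were compared after thinning each cell to 1000 UMIs, which left out 328 monocytic-like and 105 granulocytic-like cells. Irg1 was detected in 16.4% of monocytic-like cells (14.3 to 18.6) and 77.2% of granulocytic-like cells (74.7 to 79.6) after thinning, and in 34.5% and 80.4% before. It was found in 0 of 34 thinned B cell-like cells, which by the limit of 3 counts allows a share of cells with a UMI of up to 8.82%, and in 1 of 29 T cell-like cells. Lymphoid cells are taken as background here, with medians of 3772 and 5488 UMIs against 3551 in monocytic-like and 2535 in granulocytic-like cells. Before thinning, 34 B cell-like and 22 T cell-like cells were of the library labelled 4T1m, and 1 and 7 of that labelled 4T1p. This background is thus mostly that of the library labelled 4T1m. Slc7a11 was detected in 17.4% and 38.2% of thinned monocytic-like and granulocytic-like cells, and Hmox1 in 23.4% and 36.8%, with Slc7a11 in 0 and Hmox1 in 1 of the lymphoid cells. Prdx1 was detected in 50.04% and 6.51%, and in 8.82% of B cell-like and 17.2% of T cell-like cells, so that its granulocytic share was below the lymphoid ones. Over both libraries it had 158 CPM in B cell-like, 249 CPM in T cell-like and 63.7 CPM in granulocytic-like cells. The lymphoid cells therefore give no background level for Prdx1. Sqstm1 was in 19.0% of thinned monocytic-like, 27.1% of granulocytic-like, 14.7% of B cell-like and 6.90% of T cell-like cells, so that it was not confined to myeloid cells. As a gauge of free RNA, S100a8 was detected in 14.4% of thinned monocytic-like and 8.82% of thinned B cell-like cells. The number of genes with a larger share in granulocytic-like cells in both libraries was 2 as counted and 6 after thinning, and 1 where a Ptprc UMI was required. No such count over all genes is given beside these, so they are not read as particular to the 9 genes.

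**Figure D2:**
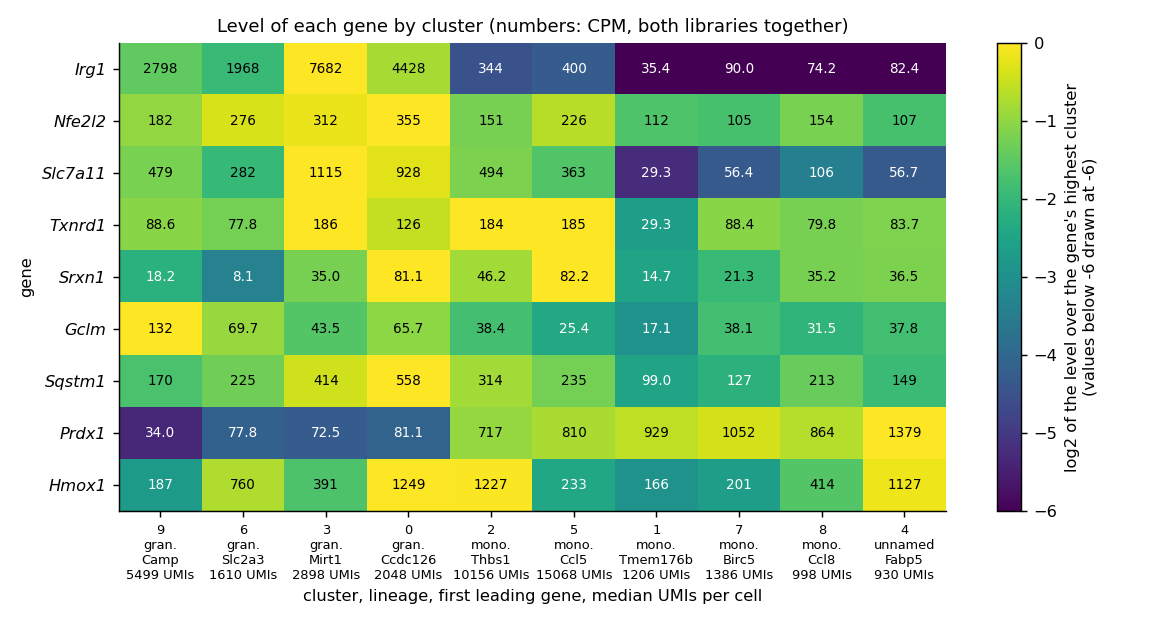
Level of each gene in 10 clusters in CPM (numbers, both libraries together), colored by the log2 ratio to the cluster with the highest level of that gene. The clusters are named by lineage, first leading gene and median UMIs per cell. Irg1 and Slc7a11 peak in cluster 3, Nfe2l2, Sqstm1 and Hmox1 in cluster 0 and Gclm in cluster 9 of the granulocytic-like cells, and Prdx1 is at 34.0 to 81.1 CPM in those and at 717 CPM or more in the others.

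Within the granulocytic-like cells, the genes peaked in different states. Cluster 3 (376 cells, led by Mirt1, Hdc, Csf1 and Il1f9) had the highest Irg1, 5317 CPM in the library labelled 4T1p and 8572 CPM in that labelled 4T1m, ahead of cluster 0 (400 cells, led by Ccdc126, Ciart and Tnfrsf23) with 3137 and 4743 CPM, without overlap of intervals in either library. Cluster 9 (175 cells with the immature-neutrophil genes Camp, Ngp and Ltf) and cluster 6 (322 cells, led by Slc2a3, Steap4 and Prok2) were lower and changed places between the libraries. Cluster 9 had 1063 CPM (928 to 1211, 24 cells) and cluster 6 had 1741 CPM (1493 to 2018) in the library labelled 4T1p, against 3165 and 2012 CPM in that labelled 4T1m. Irg1 was left out of the clustering but was among the 10 leading genes of cluster 3. Slc7a11 ran from cluster 3 (945 and 1180 CPM) through clusters 0 (758 and 970) and 9 (346 and 508) to cluster 6 (267 and 285) in both libraries, with overlap between 3 and 0 and between 9 and 6 in the library labelled 4T1p. Txnrd1 had the same order of clusters in both libraries, from 118 and 211 CPM in cluster 3 to 39.6 and 85.3 CPM in cluster 6. Its intervals in clusters 3 and 0 overlapped in the library labelled 4T1p only. Hmox1 was ordered otherwise, with 1176 and 1267 CPM in cluster 0, 1098 and 694 in cluster 6, 549 and 332 in cluster 3 and 261 and 172 in cluster 9. The intervals of its first pair of clusters overlapped in the library labelled 4T1p only. Sqstm1 was also highest in cluster 0 in both libraries (319 and 616 CPM), with intervals apart from those of cluster 3 in the library labelled 4T1m only. The intervals of Nfe2l2 overlapped between clusters 0 and 3 in both. Srxn1 was highest in cluster 0 in the library labelled 4T1m (92.0 against 32.9 CPM in cluster 3) but not in that labelled 4T1p (36.6 against 40.5 CPM, on 7 and 13 UMIs). Gclm was highest in cluster 9 in both, at 75.9 CPM (43.4 to 123, 16 UMIs) and 144 CPM, apart from the other clusters in the library labelled 4T1m only. With both libraries summed, Hmox1 alone differed by at least 4-fold between granulocytic-like clusters (6.67-fold) among genes with at least 200 UMIs, beside 20.2% of 1989 such genes. Slc7a11 (3.95-fold) and Irg1 (3.90-fold) lay just under the limit and Srxn1 (10.0-fold) had 147 UMIs. Within the single libraries, the range of Irg1 was 5.003-fold and 4.26-fold, that of Slc7a11 3.54-fold and 4.14-fold and that of Hmox1 4.51-fold and 7.38-fold. Hmox1 was thus not alone in the library labelled 4T1m. In that labelled 4T1p, the lowest Irg1 and Hmox1 were those of cluster 9, which had only 24 cells there. The next lowest were 1741 CPM of Irg1 in cluster 6 and 549 CPM of Hmox1 in cluster 3. The count over both libraries also depended on how the cells were clustered and filtered and ranged up to 6.

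Within the monocytic-like cells, most of the 9 genes were high in the 2 deep clusters and low in cluster 1. Cluster 5 (350 cells, median 15068 UMIs, led by Ccl5, Klrb1b and Ifnb1) exceeded cluster 2 (378 cells, median 10155.5 UMIs, led by Thbs1, Vcan and Ednrb) in Nfe2l2, with 178 against 107 CPM in the library labelled 4T1p and 271 against 161 in that labelled 4T1m, and in Srxn1, with 55.3 against 29.6 and 107 against 50.2 CPM. Cluster 2 exceeded cluster 5 in Hmox1, with 1171 against 259 and 1240 against 209.8 CPM, and in Sqstm1, with 303 against 201 and 317 against 266 CPM. The intervals of these 4 genes did not overlap in either library. How many of all genes were apart in this way is not given, so this is not read as particular to them. Cluster 2, which held 24.7% of the UMIs of all genes, gave 49.97% of all 9785 Hmox1 UMIs. Its Hmox1 level over both libraries, 1227 CPM, overlapped in interval with the 1249 CPM of the granulocytic-like cluster 0. Irg1 and Txnrd1 were higher in cluster 5 without overlap in the library labelled 4T1m only (460 against 348 and 266 against 211 CPM), and in that labelled 4T1p they had 335 against 326 and 97.1 against 75.8 CPM. Slc7a11 did not separate the deep clusters beyond its intervals in either library, with 171 against 200.5 CPM and 538 against 565 CPM. Cluster 1 (396 cells, median 1205.5 UMIs, led by Tmem176b, H2-Eb1 and C1qb) had the lowest level of 7 of the 9 genes over both libraries, with 35.4 CPM of Irg1, 29.3 of Slc7a11 and of Txnrd1, and 166 of Hmox1. The share of all genes lowest in cluster 1 is not given beside this count. Irg1 in that cluster rested on 13 and 16 UMIs (23.6 and 59.8 CPM in the libraries labelled 4T1p and 4T1m), beside granulocytic markers summing to 712 and 710 CPM there. Prdx1 departed from this order, being highest in the shallow cluster 7 in both libraries (1012 and 1088 CPM) and at 695 to 915 CPM in the deep clusters. Gclm also peaked in shallow clusters, 8 in the library labelled 4T1p (33.7 CPM) and 7 in that labelled 4T1m (46.0 CPM). Its intervals there overlapped those of cluster 2. Hmox1 over both libraries was higher in the shallow cluster 8 than in cluster 5 (414 against 233 CPM), but not in the library labelled 4T1p alone (236 against 259 CPM). In all, 5 of the 9 genes differed by at least 4-fold between monocytic-like clusters, where 16.8% of 5550 genes did: Slc7a11 (16.8-fold), Irg1 (11.3-fold), Hmox1 (7.38-fold), Txnrd1 (6.32-fold) and Srxn1 (5.60-fold). In the library labelled 4T1p the lowest Hmox1 was in cluster 7 (84.4 CPM, against 160 in cluster 1), and the range of Srxn1 there was 3.81-fold. Depth moved with these differences, since the lowest values were in the shallow clusters. In cluster 1, 25.3% of cells had a Ptprc UMI against 89.7% and 94.9% in clusters 2 and 5. The count was 2 where a Ptprc UMI was required and 3 in thinned cells.

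The unnamed cluster of low-RNA barcodes resembled the monocytic-like cells for Prdx1, its highest level at 1379 CPM, and had 1127 CPM of Hmox1 but 82.4 CPM of Irg1 and 56.7 of Slc7a11. These pooled levels hid differences between the libraries labelled 4T1p and 4T1m. Hmox1 had 1382 and 936 CPM, Irg1 132 and 45.0, and Slc7a11 9.42 (3 UMIs) and 92.4. The first Hmox1 value lay above the 1176 CPM of cluster 0 in that library, with overlapping intervals. Monocytic markers in the unnamed cluster summed to 48.3% and 57.9% of the monocytic-like level and its granulocytic markers to 0.883% and 0.945% of the granulocytic-like one. In B cell-like cells Irg1 had 1 UMI, and Slc7a11, Srxn1 and Hmox1 had 0, which allows up to 18.2 CPM. T cell-like cells had 120 CPM of Irg1 (75.8 to 179), on 23 UMIs in 2 of 29 cells. Irg1 had 35.4, 90.0 and 74.2 CPM in the monocytic-like clusters 1, 7 and 8. Slc7a11 and Hmox1 had 20.8 and 31.2 CPM in T cell-like cells, on 4 and 6 UMIs. The lymphoid level of Irg1 thus differed between B cell-like and T cell-like cells.

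The comparison that the study's design turns on is that of the tumors, here given within each lineage as the library labelled 4T1m over that labelled 4T1p. In monocytic-like cells all 9 genes were higher in the library labelled 4T1m. Slc7a11 had the largest ratio, from 143 to 490 CPM (log2 ratio 1.78, 1.66 to 1.91), followed by Txnrd1, from 78.3 to 216 CPM (1.46, 1.29 to 1.64). Hmox1 (0.85, 0.77 to 0.93), Srxn1 (0.74, 0.49 to 0.99), Gclm (0.64, 0.30 to 1.00), Sqstm1 (0.51, 0.40 to 0.63), Nfe2l2 and Irg1 (both 0.46, 0.33 to 0.60 and 0.35 to 0.56) followed, and Prdx1 was close to even (0.13, 0.07 to 0.20). Thus 2 of the 9 genes were at least 2-fold higher, where 7.54% of 8874 genes were, and 0 were at least 2-fold lower, where 1.9% were. The median of the 9 ratios was 0.64 beside 0.11 over all genes tested. The share of all genes with a ratio above 0 is not given. The shared direction of the 9, also in the deep clusters below, is therefore not read as particular to them. Each value compares 1 library with 1 other, so no difference between the tumors themselves can be told from it. The largest monocytic-like cluster was cluster 1 in the library labelled 4T1p (280 of 736 cells) and cluster 2 in that labelled 4T1m (295 of 787), and the values for the 2 deep clusters only, a restriction chosen after the depths were seen, stand beside the others in the plot of library ratios. There Slc7a11 had 1.63 (1.504 to 1.76) and Txnrd1 1.36 (1.18 to 1.54), Hmox1 had 0.69 and Irg1 0.26, and again all 9 ratios were above 0. The deep clusters 2 and 5 were themselves mixed unlike, with 83 and 159 cells in the library labelled 4T1p and 295 and 191 in that labelled 4T1m. Inside them Hmox1 had 0.08 (−0.02 to 0.19) in cluster 2 and −0.31 (−0.47 to −0.14) in cluster 5, so that neither held the 0.69. In thinned cells and as a mean over cells, 4 genes passed 2-fold, with Srxn1 at 1.63 and 1.59 and Hmox1 at 1.11 and 1.30 added to Slc7a11 and Txnrd1. The share of 7.54% of all genes is that of the main setting, and none is given for these settings.

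**Figure D3:**
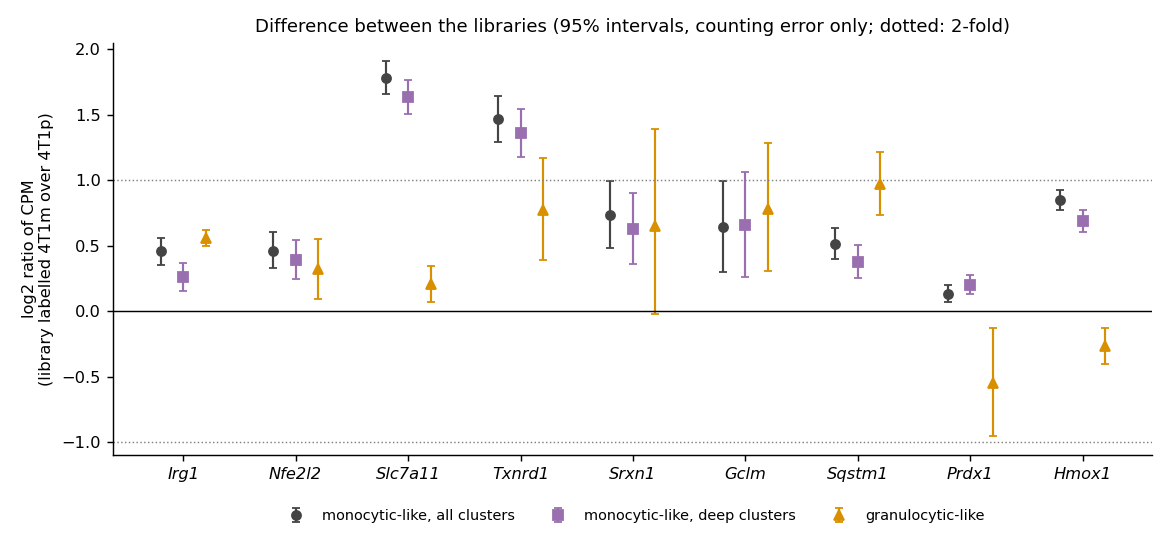
Log2 ratio of CPM of the library labelled 4T1m over that labelled 4T1p for each gene in all monocytic-like cells (black circles), in their 2 deep clusters (purple squares) and in granulocytic-like cells (orange triangles), with 95% intervals for counting error and dotted lines at 2-fold. Slc7a11 lies at 1.78 and 1.63 in monocytic-like and 0.21 in granulocytic-like cells, and Prdx1 and Hmox1 lie below 0 in granulocytic-like cells only.

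In granulocytic-like cells, 7 of the 9 genes were higher in the library labelled 4T1m and 0 passed 2-fold in either direction, where 7.17% of 4488 genes were at least 2-fold higher and 3.21% lower. Sqstm1 came closest, from 197 to 385 CPM (log2 ratio 0.97, 0.73 to 1.21), and passed 2-fold where a Ptprc UMI was required (1.04) and in thinned cells (1.01). Gclm (0.78, 0.31 to 1.29), Txnrd1 (0.77, 0.39 to 1.17), Irg1 (0.56, 0.50 to 0.62) and Nfe2l2 (0.32, 0.09 to 0.55) followed. Slc7a11, the gene with the largest ratio in monocytic-like cells, had 0.21 (0.07 to 0.34), and the interval of Srxn1 held 0 (0.65, −0.02 to 1.39). Hmox1 was lower in the library labelled 4T1m (−0.26, −0.40 to −0.13), and Prdx1 too (−0.55, −0.95 to −0.13), on 70 and 183 UMIs. The median of the 9 was 0.56 beside 0.07 over all genes. For the 7 higher genes too, the share of all genes above 0 is not given. Whether the lineages differ in these ratios was not tested.

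**Figure D4:**
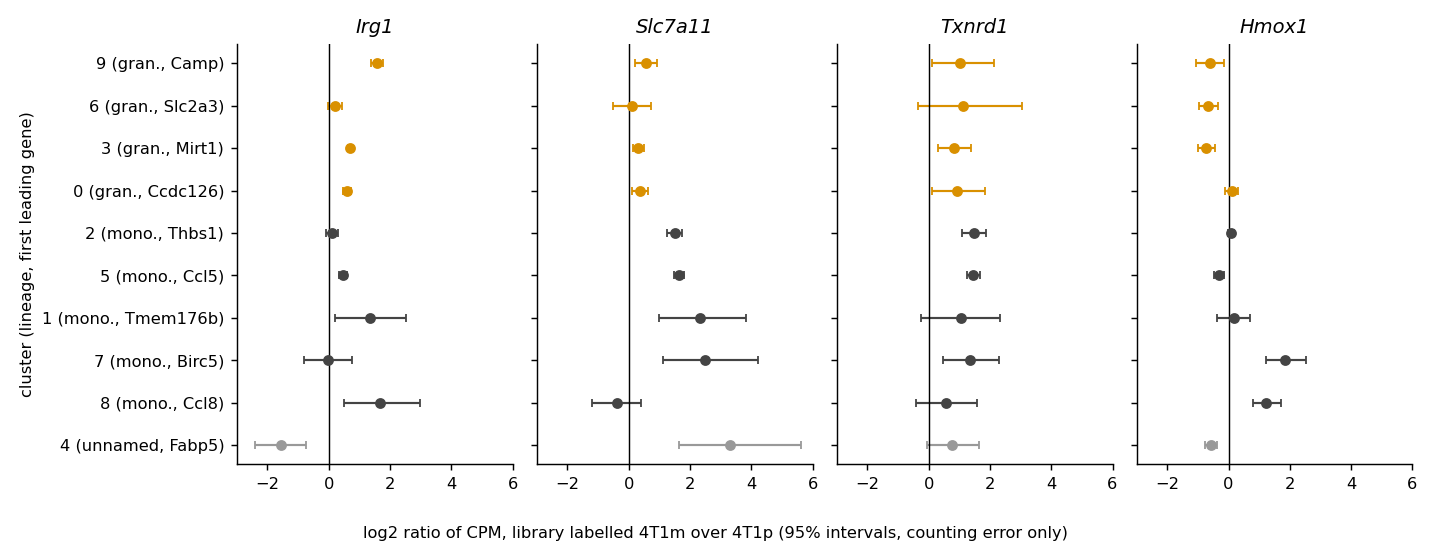
Log2 ratio of CPM of the library labelled 4T1m over that labelled 4T1p within each cluster for Irg1, Slc7a11, Txnrd1 and Hmox1, with 95% intervals for counting error. Granulocytic-like clusters are orange, monocytic-like clusters dark and the unnamed cluster gray. Txnrd1 is above 0 in all 10 clusters shown, Slc7a11 is above 0 in 9 and Hmox1 changes sign between clusters. Irg1 is below 0 in the unnamed cluster (−1.55) and in cluster 7 (−0.03).

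The ratios were then taken within clusters, which holds the state of the cells more nearly constant. Slc7a11 had 1.496 (1.26 to 1.74) in cluster 2 and 1.65 (1.49 to 1.81) in cluster 5, the deep monocytic-like clusters, with 201 and 171 CPM in the library labelled 4T1p and 565 and 538 in that labelled 4T1m. In the shallow ones it had 2.32 in cluster 1 and 2.50 in cluster 7, on 7 and 5 UMIs of the library labelled 4T1p, but −0.39 (−1.20 to 0.41) in cluster 8. In the 4 granulocytic-like clusters it lay between 0.09 and 0.55. Txnrd1 was above 0 in all 5 monocytic-like clusters (0.56 to 1.47) and all 4 granulocytic-like ones (0.83 to 1.11), with an interval above 0 in 3 of each. Sqstm1 was above 0 in all 9 as well, from 0.06 in cluster 2 to 1.42 in cluster 9, and Irg1 in 8 of 9, with 1.57 (1.38 to 1.78) in cluster 9 (24 and 151 cells), 0.69 in cluster 3, 0.60 in cluster 0 and 0.21 (−0.02 to 0.45) in cluster 6. The unnamed cluster, which is not among these 9, went the other way for Irg1, at −1.55 (−2.42 to −0.74). That value rested on 42 UMIs of the library labelled 4T1p and 19 of that labelled 4T1m. The Hmox1 ratio of all monocytic-like cells was not found inside most of their clusters. It was 0.08 (−0.02 to 0.19) in cluster 2 and −0.31 (−0.47 to −0.14) in cluster 5, 0.17 in cluster 1, and 1.85 and 1.23 in clusters 7 and 8, a median of 0.17 against 0.85 for the lineage. Cluster 2, the monocytic-like cluster with the highest Hmox1 level, held 83 of 736 monocytic-like cells in the library labelled 4T1p and 295 of 787 in that labelled 4T1m. In granulocytic-like cells Hmox1 lay between −0.72 and −0.60 in clusters 3, 6 and 9 and at 0.11 in cluster 0. Prdx1 had a ratio of 0.40 (0.31 to 0.49) in cluster 5 and between −0.03 and 0.18 in the other monocytic-like clusters.

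Genes around these 9 in the pathway were counted from 10 lists with 92 genes, of which 79 had enough UMIs between the lineages in both libraries. In both, 31 were at least 2-fold higher in monocytic-like cells and 15 lower, where 46.2% and 7.68% of all genes were, so that the share of higher genes lay under that of all genes. The 31 fell to 11 in thinned cells and to 19 with a minimum of 200 UMIs, and the 15 to 9 with that minimum. The enzymes that surround or are inhibited by itaconate were on the monocytic side, opposite to Irg1. Of 12 genes for citric acid cycle enzymes and mitochondrial carriers, 11 were at least 2-fold higher in monocytic-like cells and 0 lower, among them Idh3a (log2 ratio 2.71 and 3.84), a subunit of isocitrate dehydrogenase, and the 4 succinate dehydrogenase subunit genes Sdha (1.08 and 1.35), Sdhb (1.77 and 1.61), Sdhc (3.02 and 2.93) and Sdhd (1.21 and 1.23). The median log2 ratio of the 12 was 2.32 and 2.47, beside 0.99 and 1.19 over all genes. Sdha and Sdhd thus lay near the median of all genes. Of 9 genes of NRF2 control, 2 were higher and 0 lower. They were Keap1, at 2.79 (217 against 6 UMIs) and 3.43 (210 against 9), and Rbx1, a subunit of the cullin ligase, at 1.32 and 1.40.

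Of 11 genes of glutathione use, 4 were higher in monocytic-like cells, Gss (1.39 and 1.46), Gstm1 (2.02 and 3.76), Gstp1 (2.34 and 2.99) and Gsto1 (3.51 and 3.66), and 2 lower, Mgst1 (−1.28 and −1.91), a membrane-bound glutathione transferase, and Glrx (−1.66 and −1.53), glutaredoxin. Of 9 genes of the thioredoxin and peroxiredoxin systems, 5 were higher, Txn2 (2.02 and 2.40), Txnrd2 (2.20 and 3.16), Prdx2 (3.01 and 3.60), Prdx3 (3.003 and 2.98) and Prdx4 (5.58 on 1 granulocytic UMI, and 4.07). These 3 peroxiredoxins thus had the direction of Prdx1, but 46.2% of all genes were also at least 2-fold higher in both libraries. For each list given here, the share of all genes that were lower is 7.68%. Txnip, the inhibitor of thioredoxin, was lower (−1.62 and −1.85). Of 5 genes of NADPH supply, Idh1 was higher (2.66 and 3.003). Of 8 genes of quinone and aldehyde metabolism and efflux, Cbr1 (3.59 on 1 granulocytic UMI, and 2.51), Ugdh (1.07 and 1.35) and Ptgr1 (2.31 and 3.74) were higher and Osgin1 lower (−3.22 and −2.90).

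Of 7 genes of heme and iron handling, the biliverdin reductase genes Blvra (2.02 and 2.28) and Blvrb (2.82 and 2.33) and the heme transporter gene Slc48a1 (2.41 and 2.40) were higher in monocytic-like cells, while the iron exporter gene Slc40a1 (−3.54 and −3.47) and the ferritin heavy chain gene Fth1 (−1.13 and −1.02) were lower. Autophagy receptors and their partners were mostly on the granulocytic side. Of 5 genes, Optn (−4.18 and −3.34), Map1lc3b (−1.66 and −1.88), Tax1bp1 (−1.21 and −1.10) and Nbr1 (−1.02 and −1.17) were lower in monocytic-like cells and Gabarapl1 higher (1.43 and 2.00). Beside these lists, 46.2% of all genes were at least 2-fold higher in both libraries and 7.68% lower. Of 5 genes of the ATF4 stress arm, which also acts on Slc7a11, Ddit3 (−2.12 and −2.76), Ddit4 (−1.84 and −1.54) and Sesn2 (−2.51 and −2.29) were lower and 0 higher. Of 8 inflammatory genes often induced with Irg1, Irf1 (−1.96 and −1.26) and Nos2 (−1.56 and −1.10) were lower and Il6 was higher, with 263 UMIs against 0 in the library labelled 4T1p (a log2 ratio of at least 4.07, against a floor of 3 UMIs per group) and 1061 against 9 in that labelled 4T1m (log2 ratio 5.77).

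Between the libraries, 7 of 83 genes of the lists were at least 2-fold higher in monocytic-like cells of the library labelled 4T1m and 0 lower, where 7.54% and 1.9% of all genes were, so that the count lay near that of all genes. They were the prostaglandin synthase gene Ptgs2 (2.06), the glutathione conjugate exporters Abcc1 (1.97) and Abcc4 (1.31), Il6 (1.36), Cul3 (1.11), Slc40a1 (1.10) and Optn (1.07). Within the NRF2 control list, Cul3 had the highest ratio and Keap1 the lowest (−0.70, −0.98 to −0.42). Without the shallow clusters the count was 3. In granulocytic-like cells, 3 of 60 genes were higher, Abcc1 (1.77, on 10 and 130 UMIs), G6pdx (1.33), the first enzyme of the pentose phosphate pathway, and Slc40a1 (1.03), and 1 was lower, Mgst2 (−1.09), where 7.17% and 3.21% of all genes were. The direction of Abcc1 and Slc40a1 was the same in both lineages. In monocytic-like cells the medians of the 10 lists ran from −0.19 for heme and iron handling to 0.42 for NRF2 control, beside 0.11 over all genes.

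Across the 19 groups of cluster and library with at least 30 cells, the 9 genes did not share a common pattern. The correlations given are Pearson's r of log2(CPM + 10) and describe these groups, which share libraries and depth. Irg1 ran with Slc7a11 (r = 0.84), Nfe2l2 (0.82) and Sqstm1 (0.70), against Prdx1 (−0.92), and little with Hmox1 (0.32) or Srxn1 (0.10). Slc7a11 ran with Nfe2l2 (0.87) and Sqstm1 (0.83), and Txnrd1 with Sqstm1 (0.71) and Srxn1 (0.70). Hmox1 was closest to Sqstm1 among the 9 (0.51). Among 6415 genes with at least 200 UMIs, those most like Irg1 were 2810474O19Rik (0.98), Casp4 (0.97), which encodes an inflammatory caspase, and Trem1 (0.97), a myeloid receptor. Those most like Slc7a11 were Tnfaip3 (0.95), Traf1 (0.95) and Btg1 (0.94), and those most like Nfe2l2 were Hnrnph2 (0.93), Ets2 (0.92) and the interleukin-1 beta gene Il1b (0.91). Prdx1 was most like the ribosomal protein genes Rpl12, Rps19 and Rpl4 (all 0.99), and Gclm like Slc27a4 (0.87) and the granule genes Ngp (0.86) and Cd177 (0.85). Hmox1 was most like Ets1 (0.88), Gpr137b (0.88) and the lipid droplet gene Plin2 (0.87), Sqstm1 like Hspa13 (0.92), Trpm7 (0.90) and Ifrd1 (0.90), Txnrd1 like Aff1, Nfat5 and Fbxo11 (all 0.89), and Srxn1 like Dnajb4 (0.84), Atad2b (0.81) and Dtx4 (0.81).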

How the data were processed

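The authors aligned the reads with Cell Ranger to mm10 (GRCm38) and deposited, for the barcodes it called as cells, the raw counts of UMIs for each gene. The matrix header names software version 3.1.0. From these counts, levels were computed as CPM, the summed UMIs of a group scaled to 1e+06, with exact Poisson 95% intervals, shares in percent with exact binomial intervals, and log2 ratios of CPM with intervals from the exact binomial share of both counts. Each condition is 1 library, so no p-value was computed. A gene was called at 2-fold or more with at least 50 UMIs in both groups together. Where 1 group had 0 UMIs, a floor of 3 was used. The genes of interest, lists, markers and settings were chosen with earlier results of these data known.

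Barcodes were kept at 250 to 5000 genes, at most 27000 UMIs and at most 12.5% mitochondrial UMIs. Gm42418 and AY036118 were left out. Doublets were not removed in the main analysis, and Scrublet removal (13 and 44 cells) was an alternative. Clusters came from SCTransform (3000 variable genes, without 34 member and pathway genes), 11 principal components and Louvain at resolution 0.8. B and T cell-like clusters needed 2 of 3 markers in 25% of cells, and other clusters took the lineage whose markers were better detected, apart from a low-RNA cluster with no such marker among its 10 leading genes. Named genes are the 9, pathway genes at least 2-fold apart in the same direction in both libraries or at the ends of their list, and the 3 genes most like each in pattern. Intervals and signs were tested on simulated data. Tools were Python 3.11.15 (scanpy 1.11.5, matplotlib 3.10.9, scipy 1.17.1, numpy 2.4.6 and pandas 2.3.3) and R 4.3.3 (Seurat 5.3.0, sctransform 0.4.2, Matrix 1.6.5). Gene places are from GENCODE. The values of 1 listed pathway gene are not reported here.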

Additional observations from a re-analysis of the deposited data

Results flagged for a closer look

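Barcodes outside the limits on genes, UMIs and mitochondrial share, which enter no comparison above, also carried transcripts of the 9 genes. The summed level of the 9 was 2586 CPM in the kept barcodes of the library labelled 4T1p and 4280 CPM in those of that labelled 4T1m. In barcodes that met the gene minimum but lay above the mitochondrial limit it was 2363 CPM (286 barcodes) and 3890 CPM (504 barcodes), in barcodes above the UMI or gene limit with a mitochondrial share within the limit 2048 CPM (57) and 2471 CPM (58), and in barcodes below the gene minimum 237 CPM (170) and 260.3 CPM (95). All 6 values lay above the level that a count of 0 allows. Irg1 alone had 1046 and 1854 CPM above the mitochondrial limit against 703 and 1656 CPM in kept barcodes. Mitochondrial UMIs are part of the total here, which lowers every CPM above that limit. Barcodes outside the limits were also not split by lineage, so these levels are not of like groups of cells.

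The ratio of the library labelled 4T1m over that labelled 4T1p had opposite directions in the lineages for a pair of genes. Prdx1 had a log2 ratio of 0.13 in monocytic-like and −0.55 in granulocytic-like cells, and Hmox1 had 0.85 and −0.26. The difference between the lineages was not tested, since each group is 1 library. The Prdx1 direction changed in 1 of 14 alternatives in monocytic-like cells (−0.12 with at most 5% mitochondrial UMIs) and in 2 of 14 in granulocytic-like cells. That of Hmox1 changed in 0 of 14 in each lineage. Every alternative pooled the clusters of a lineage, so none could show the direction within clusters. Single monocytic-like clusters had Hmox1 ratios from −0.31 (cluster 5) to 1.85 (cluster 7), with 0.08 in cluster 2. Single granulocytic-like clusters had −0.72 to 0.11.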

How the results depend on the processing

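Each value was recomputed under 14 alternatives, 12 planned and 2 added after the data were seen (without the shallow monocytic-like clusters, and with the unnamed cluster counted as monocytic-like). No called ratio changed direction. Of the lineage ratios past 2-fold, 96 of 96 values had the same direction and 93 stayed past it, and of the library ratios past 2-fold 28 of 28 did both. Among ratios under 2-fold, 8 of 152 lineage values and 3 of 221 library values changed direction. As a mean over cells, the 4T1p lineage ratios moved most, Irg1 to −4.51, Slc7a11 to −3.36, Hmox1 to −1.46, Nfe2l2 to −1.09 and Sqstm1 to −0.73. Counts that moved by more than 1.5 times were these. With cells thinned to 1000 UMIs, genes at least 2-fold lower in monocytic-like cells in both libraries went from 2 to 1, genes higher in the library labelled 4T1m from 2 to 4 in monocytic-like and from 0 to 1 in granulocytic-like cells, pathway genes higher in monocytic-like cells from 31 to 11, pathway genes higher between libraries in granulocytic-like cells from 3 to 1, genes at least 4-fold apart between clusters from 5 to 3 (monocytic-like) and from 1 to 3 (granulocytic-like), and genes with the larger share in granulocytic-like cells from 2 to 6. With a Ptprc UMI required, these were 1 gene higher between libraries in granulocytic-like cells, 3 instead of 7 pathway genes higher in monocytic-like cells, 2 and 5 genes at least 4-fold apart, and 1 gene by share. With a minimum of 200 UMIs, they were 1 gene lower between lineages, 19 pathway genes higher and 9 instead of 15 lower between lineages, and 4 (monocytic-like) and 1 (granulocytic-like) pathway genes higher and 0 instead of 1 lower in granulocytic-like cells between libraries. With at most 5% mitochondrial UMIs, 1 gene was lower between lineages and 4 genes were 4-fold apart between granulocytic-like clusters. As a mean over cells of CPM, 4 genes and 12 pathway genes were higher and 2 instead of 0 pathway genes lower in monocytic-like cells between libraries, 5 pathway genes were higher in granulocytic-like cells, and 2 genes were 4-fold apart between granulocytic-like clusters. That last count was 5 with log-normalization, 3 with the listed genes allowed in clustering, 2 at resolution 0.4 and 6 at resolution 1.2. Pathway genes lower between libraries in granulocytic-like cells were 2 with the highest Scrublet scores removed, 2 when scaled without the 50 most abundant genes and 2 with lineage assigned cell by cell, and without the shallow clusters 3 pathway genes were higher in monocytic-like cells. The cause was not tested, apart from the smaller number of genes tested that a minimum of 200 UMIs and thinning bring by construction. Shares over all genes are given for the main setting only. No paired analysis was possible because each condition is 1 library and the result comes from no test. Depth limits Srxn1 and Gclm most, with 21 and 42 UMIs in granulocytic-like cells of the library labelled 4T1p.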
